A study of Mus musculus with 68 samples.

Results

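Klhl13 encodes an adaptor that hands substrates to the ubiquitin ligase CUL3, and its transcript was followed together with those of its partner Klhl9 and of the scaffold Cul3 in every line of the series. The 3 genes are 3 of the 55335 gene rows of each count table, and all 3 were present and passed the filter on low counts in every fit. Klhl13 was chosen by its own fold changes in the rescue experiment, where it was low in MCM2-2A#2, so its values there are a description without a test, and Klhl9 and Cul3 were chosen as its known partners. Total RNA-seq was done on mouse embryonic stem cells of the male E14JU line (129/Ola background), untreated and kept on gelatin in serum with LIF, and each edited line is 1 clone. MCM2-2A lines carry alanine substitutions where MCM2, a subunit of the replicative helicase, binds histones, MCM2-R#2 is MCM2-2A#2 with the mutation changed back, POLE4-KO lines lack the POLE4 subunit of DNA polymerase epsilon, and WT lines carry neither change. The rescue experiment holds MCM2-R#2, MCM2-2A#2 and WT#1 with 4 cultures each, and its MCM2-R#2 group rests on column names and the study's sample table because the sample labels give another line number and a wild-type genotype. The counts used from the clone experiment cover 8 MCM2-2A clones and 7 WT clones, with 2 or 3 libraries per clone and batch. Its batches are named January, March and August. A further WT clone of the January batch is listed among the samples, but no count column could be tied to it, so it was left out. The POLE4 experiment holds 3 POLE4-KO clones and WT#1 with 3 cultures each.

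Cullin-RING ligases attach ubiquitin to proteins that an exchangeable adaptor brings to the cullin. CUL3 uses adaptors with a BTB domain, which binds the cullin, joined in the KLHL family to Kelch repeats, which bind the substrate. In human cells KLHL9 and KLHL13 work together with CUL3 to ubiquitinate the mitotic kinase Aurora B, and in mouse embryonic stem cells Klhl13 is known as an X-linked gene that affects the pluripotency network and differentiation.

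Klhl13 (ENSMUSG00000036782) lies on the minus strand of chromosome X at 23219271 to 23365082 in mm10, with 7 annotated transcripts, 5 of them protein-coding, and the gene counts do not separate these transcripts. Klhl9 (ENSMUSG00000070923) is a single-exon gene on the minus strand of chromosome 4 at 88718292 to 88722465. Of its exon, 661 bases overlap the protein-coding gene Gm26566 on the other strand, and the strand setting of the read counting is not given in the sources used here, so reads from the 2 genes may not be told apart there. Cul3 (ENSMUSG00000004364) lies on the minus strand of chromosome 1 at 80264923 to 80340480. Klhl13 shares 108 exon bases with the same-strand pseudogene Gm14523 at its first exon, where counting could split reads.

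Klhl13 and Klhl9 are close paralogs, so it matters whether reads of one could be counted for the other. Their longest open reading frames, of 1965 and 1854 bases, were identical at 81.65% of 1842 aligned bases. The longest run that the transcripts of both genes share is 22 bases, found at 2 places, and no word of 25 bases or more is shared, a length below the 76 or 100 bases of the reads. The pair of lines shows 82 aligned coding bases around one of these runs, with the 11 differing bases in capitals, to show how closely the 2 genes alternate between identity and difference:
Klhl13: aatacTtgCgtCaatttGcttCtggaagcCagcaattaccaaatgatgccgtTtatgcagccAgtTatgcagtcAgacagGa
Klhl9: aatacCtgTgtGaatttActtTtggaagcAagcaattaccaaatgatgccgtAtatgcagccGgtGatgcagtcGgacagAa
A perfectly matched read of the stated length thus differs between the 2 genes at 1 base or more.

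Library totals were 23161127 to 35602583 counts in the rescue experiment, 27854706 to 67467849 in the clone experiment and 18369196 to 26975105 in the POLE4 experiment, and the 3 genes were counted 1327 times or more in every library. Levels are counts scaled to CPM after TMM scaling, and log2 fold changes and adjusted p come from edgeR's quasi-likelihood test across all genes. A gene was called when its adjusted p was under 0.01 and its log2 fold change beyond 0.58 in either direction. All 8 embryonic stem cell markers examined, among them Pou5f1 and Sox2, were detected, with summed levels of 2410 to 4422 CPM. Summed primitive endoderm markers (6 of 6 detected, none at 0 throughout) moved with the MCM2-2A genotype in the rescue experiment. They stood at 13.7 to 16.4 CPM in MCM2-R#2, 35.3 to 53.3 CPM in MCM2-2A#2 and 13.0 to 17.2 CPM in WT#1. In the clone experiment they stood at 11.5 to 34.1 CPM in MCM2-2A libraries and 6.32 to 16.0 CPM in WT libraries. Summed trophectoderm markers (5 of 5 detected) stood at 47.5 to 67.3 CPM in MCM2-R#2, 37.8 to 52.0 CPM in MCM2-2A#2 and 57.5 to 64.9 CPM in WT#1 of the rescue experiment. Most of this sum is Tfap2c, with a median of 31.3 CPM in MCM2-2A#2 and 48.6 CPM in WT#1. The other markers went the other way, with overlapping ranges. Their medians in MCM2-2A#2 and WT#1 were 5.51 and 5.06 CPM for Cdx2, 8.81 and 7.46 for Eomes, 3.24 and 2.28 for Gata3, and 0.19 and 0.07 for Elf5. Summed 2-cell-like markers stood there at 16.2 to 39.7 CPM in MCM2-R#2, 30.4 to 40.3 CPM in MCM2-2A#2 and 17.1 to 29.8 CPM in WT#1. The part of these lists in the Klhl13 values was not tested. Pole4 stood at 2.87 to 8.35 CPM in the 3 POLE4-KO clones and at 56.2 to 61.3 CPM in WT#1. Counts cannot show the MCM2 substitutions. In these bulk samples fewer cells of a type and less RNA per cell cannot be told apart.

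In the rescue experiment Klhl13 was low in the mutant, and the reverted line stood between the mutant and WT. MCM2-R#2 cultures had 198, 227, 248 and 201 CPM of Klhl13. MCM2-2A#2 cultures had 65.8, 85.4, 89.2 and 79.6 CPM. WT#1 cultures had 260, 337, 273 and 275 CPM. The 4 mutant cultures lay below all others, and all 4 MCM2-R#2 cultures lay below all 4 WT#1 cultures, so the 3 lines did not overlap. How many of all genes separate these lines was not counted. Means were 219 ± 23.9 CPM in MCM2-R#2, 80.0 ± 10.3 CPM in MCM2-2A#2 and 286 ± 34.6 CPM in WT#1 (SD, n = 4 each).

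The fitted log2 fold change of Klhl13 was -1.84 in MCM2-2A#2 over WT#1, which is 27.9% of the WT#1 level, and 1.45 in MCM2-R#2 over MCM2-2A#2. It was -0.39 in MCM2-R#2 over WT#1, or 76.4% of the WT#1 level. By fold change Klhl13 ranked 16 from the lowest of 17098 genes in MCM2-2A#2 over WT#1. In that comparison 2.76% of genes were called, and 1.37% in MCM2-R#2 over MCM2-2A#2. These values chose the gene and carry no test. No culture of MCM2-R#2 was sequenced in the second run, which holds part of the libraries of both other lines, and with single libraries as units and the run as a covariate the 3 fold changes were -1.83, 1.49 and -0.34.

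**Figure D1:**
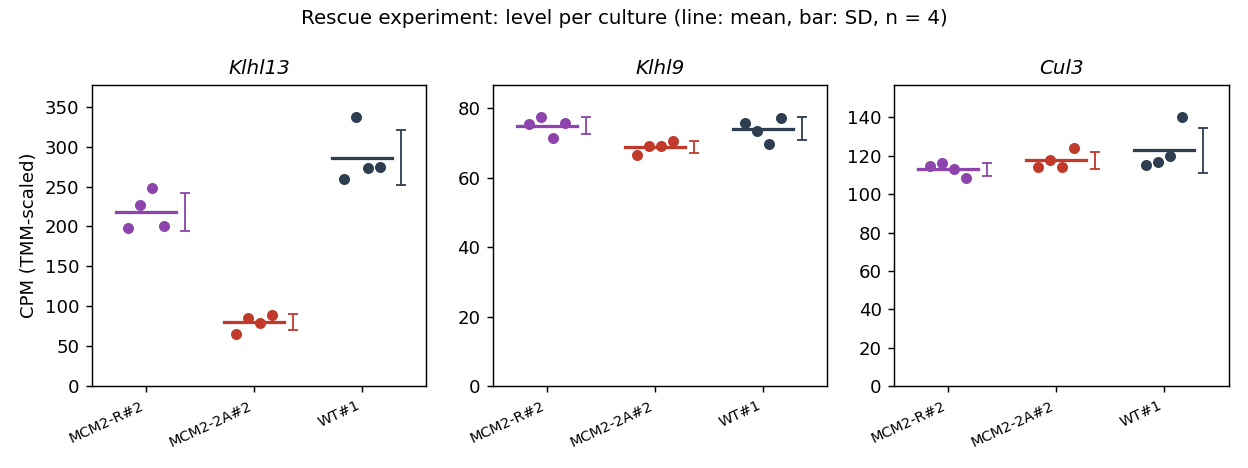
Levels of Klhl13, Klhl9 and Cul3 in CPM per culture of the rescue experiment, for MCM2-R#2, MCM2-2A#2 and WT#1. Points are cultures, lines are means and bars are SD over 4 cultures. Klhl13 stands apart in MCM2-2A#2, at 65.8 to 89.2 CPM, while the Klhl9 and Cul3 points of the 3 lines lie between 66.6 and 77.5 CPM and between 108 and 140 CPM.

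Neither partner gene was called in the same cultures. Klhl9, the co-adaptor, averaged 75.1 ± 2.55 CPM in MCM2-R#2, 68.9 ± 1.67 CPM in MCM2-2A#2 and 74.1 ± 3.35 CPM in WT#1 (SD, n = 4 each). The mutant's cultures, at 66.6 to 70.6 CPM, overlapped only the lowest WT#1 culture, at 69.7 CPM. The log2 fold change of Klhl9 was -0.10 (SE 0.05, adjusted p = 0.152) in MCM2-2A#2 over WT#1. It was 0.12 (SE 0.05, adjusted p = 0.117) in MCM2-R#2 over MCM2-2A#2, and 0.02 (SE 0.05, adjusted p = 0.916) in MCM2-R#2 over WT#1, where 0.298% were called.

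Cul3, the scaffold that carries the adaptor and the RING subunit, averaged 113 ± 3.39 CPM in MCM2-R#2, 118 ± 4.53 CPM in MCM2-2A#2 and 123 ± 11.7 CPM in WT#1 (SD, n = 4 each). Its cultures overlapped between all 3 lines. The log2 fold changes were -0.06 (95% interval -0.18 to 0.05) in MCM2-2A#2 over WT#1, -0.06 (-0.18 to 0.06) in MCM2-R#2 over MCM2-2A#2 and -0.12 (-0.24 to -0.0035) in MCM2-R#2 over WT#1, with adjusted p of 0.522, 0.610 and 0.471. None was called.

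Compared per kb of exon, Klhl13 had the highest average of the 3 transcripts in every group averaged except MCM2-2A#2 of the rescue experiment. These averages do not hold for every clone. In MCM2-2A#8 Klhl13 had 54.6 CPM, against 80.1 CPM for Klhl9 and 132 CPM for Cul3, before division by exon lengths of 4253, 4174 and 4873 bases. In MCM2-2A#2 of the rescue experiment Klhl13 stood at 18.8 ± 2.41 CPM per kb, below Cul3 at 24.1 ± 0.93 and near Klhl9 at 16.5 ± 0.40 (SD, n = 4). In WT#1 it reached 67.3 ± 8.14 CPM per kb, against 25.2 ± 2.40 for Cul3 and 17.8 ± 0.80 for Klhl9 (SD, n = 4). In the January libraries of MCM2-2A#2, from the clone experiment, it stood at 33.2 ± 8.94 CPM per kb, above Cul3 at 22.8 ± 1.804 and Klhl9 at 15.5 ± 0.66 (SD, n = 3). Over the clone experiment, where a unit is a clone in a batch, it averaged 39.4 ± 11.1 CPM per kb in 9 MCM2-2A units and 91.4 ± 28.8 in 8 WT units. Cul3 averaged 26.4 ± 2.39 and 31.1 ± 5.30 CPM per kb in these MCM2-2A and WT units, and Klhl9 17.1 ± 2.29 and 18.0 ± 2.25. These values divide by the union of annotated exons and so depend on which transcripts the cells use.

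Libraries that the choice of Klhl13 did not use were available in the clone experiment, where the same question was asked of other clones and of other cultures of MCM2-2A#2. In the March batch, Klhl13 had 182, 210 and 213 CPM in MCM2-2A#1, 143, 159 and 175 CPM in MCM2-2A#3, and 437, 463 and 540 CPM in WT#1. Every mutant library lay below every WT#1 library, but the share of all genes separated in this way was not counted for March. The log2 fold change was -1.25 (SE 0.12, adjusted p = 1.678e-08) in MCM2-2A#1 and -1.59 (SE 0.12, adjusted p = 6.768e-11) in MCM2-2A#3. Both were called. In MCM2-2A#1 over WT#1, 4.52% of all 22028 genes were called and 0.922% of all were called lower, and in MCM2-2A#3 over WT#1 11.8% were called and 6.49% called lower. Libraries of 1 clone are the units there, so these p-values measure the spread between libraries and say nothing of the spread between clones.

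The January batch also had a WT clone, but no count column could be tied to it. MCM2-2A#2 was sequenced again in that batch, beside MCM2-2A#1 but without a WT library used here. It had 184, 110 and 131 CPM of Klhl13, against 185, 167 and 199 CPM in MCM2-2A#1. The first MCM2-2A#2 library overlapped MCM2-2A#1, and the other 2 lay below it. The log2 fold change was -0.38 (SE 0.12, adjusted p = 0.0273), which was not called, while 4.6% of genes were. Without the first MCM2-2A#2 library it was -0.61 with an adjusted p of 4.700e-05, past both limits, and over the 6 fits that leave out 1 library it ran from -0.61 to -0.23.

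MCM2-2A#1 was sequenced in both batches and links MCM2-2A#2 to WT#1. This bridge, which takes for granted that MCM2-2A#1 kept its level (167 to 199 CPM in January and 182 to 213 CPM in March), gave a log2 fold change of Klhl13 of -1.63 (SE 0.17, adjusted p = 1.302e-07) in MCM2-2A#2 over WT#1. It was called, and ranked 14 among 163 genes called lower. Over the bridge 2.61% of all genes were called in either direction and 0.74% of all genes were called lower. The same bridge gave 0.11 (SE 0.11) for Klhl9 and -0.04 (SE 0.12) for Cul3, neither called.

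August held several clones of each genotype and so shows how far clones differ by themselves. From the lowest to the highest of the MCM2-2A clones, Klhl13 averaged 55.0 CPM over the libraries of MCM2-2A#8, 176 CPM for MCM2-2A#6, 195 CPM for MCM2-2A#5, 199 CPM for MCM2-2A#7 and 201 CPM for MCM2-2A#4. The WT clones had 188 CPM in WT#8, 248 in WT#6, 354 in WT#7, 412 in WT#2, 437 in WT#1, 442 in WT#4 and 562 in WT#3. All 5 MCM2-2A clones lay below the WT median, but WT#8 lay among them. The libraries of WT#8 overlapped those of MCM2-2A#5, those of MCM2-2A#5, MCM2-2A#7 and MCM2-2A#4 overlapped each other, and so did those of WT#2, WT#1 and WT#4.

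With libraries summed per clone, the mean was 164 ± 62.3 CPM in the MCM2-2A clones (SD, n = 5) and 376 ± 127 CPM in the WT clones (SD, n = 7). The WT clones alone spanned 186 to 559 CPM, and the coefficient of variation was 37.9% in MCM2-2A clones and 33.7% in WT clones. With the clone as the unit the log2 fold change was -1.20 (SE 0.32, 95% interval -1.83 to -0.56, adjusted p = 0.0768). This was not called, and 0.227% of 20738 genes were called. Without MCM2-2A#8, the lowest clone, the log2 fold change was -0.98 (adjusted p = 0.0723). Complete separation of the 2 sets of clones, which Klhl13 did not show, was found for 3.28% of genes.

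Over all 3 batches, with counts summed per clone and batch and the batch as a covariate, Klhl13 had 54.6 to 203 CPM in 9 MCM2-2A units (median 183) and 186 to 559 CPM in 8 WT units (median 424). The log2 fold change was -1.23 (SE 0.26, adjusted p = 0.0169), again short of the call, which 0.679% of 23265 genes passed. MCM2-2A#1 and WT#1 each enter with 2 batches, so the units are not all independent. January holds no WT unit, so with the batch as a covariate its MCM2-2A units do not enter the fold change between genotypes. Leaving out 1 clone in turn gave -1.33 to -1.06, with a call only without WT#8 (-1.33, adjusted p = 0.00803). Without WT#1 and MCM2-2A#2, the clones of the rescue experiment, it was -1.15 (adjusted p = 0.137). March then holds no WT unit either, so this value rests on the August clones and is not a separate check. The August fit without WT#1 gave -1.16 (adjusted p = 0.130).

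**Figure D2:**
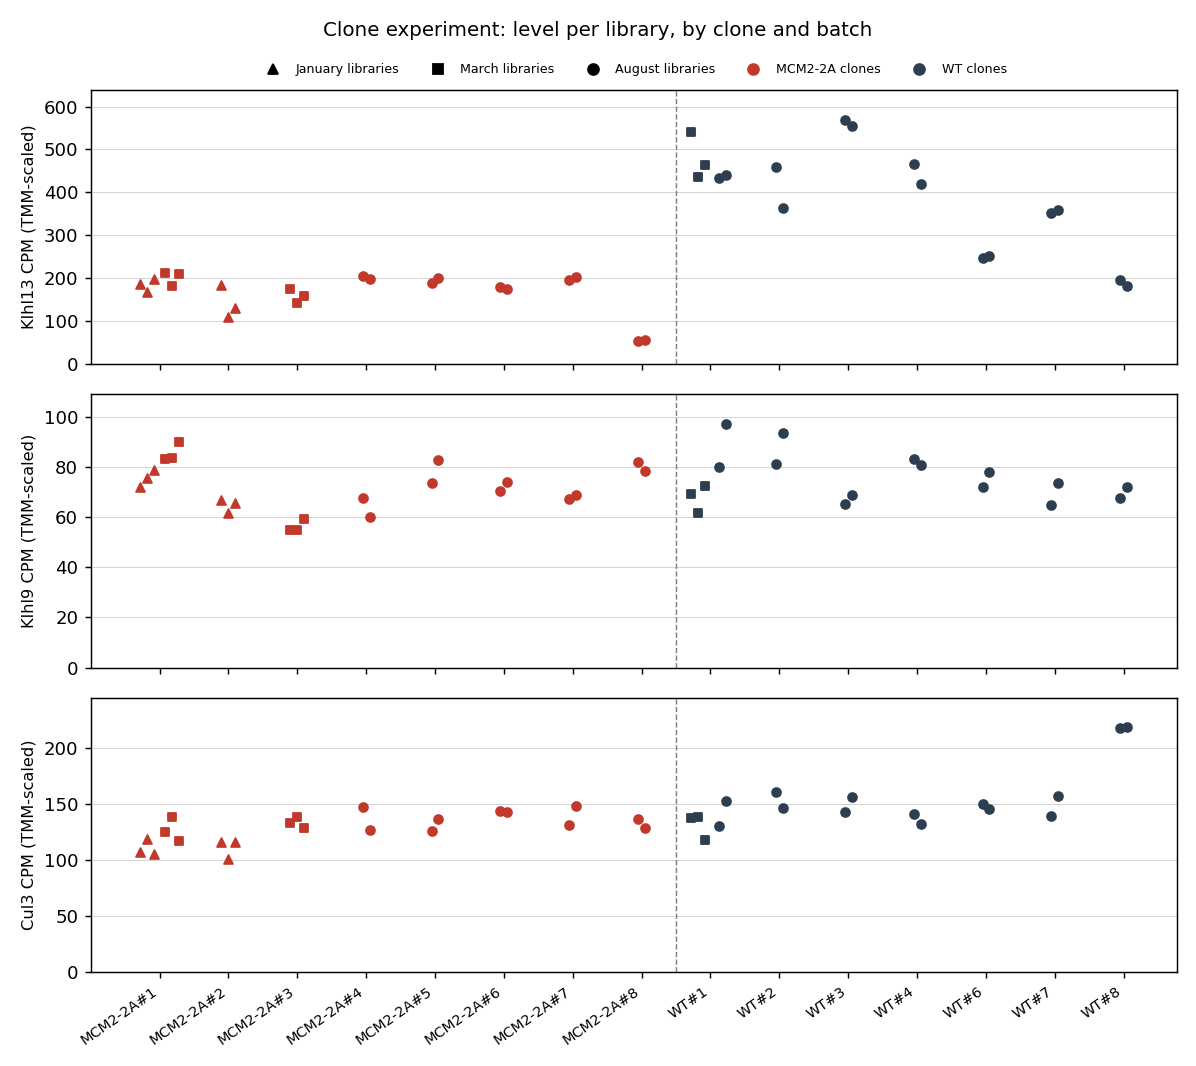
Levels of Klhl13, Klhl9 and Cul3 in CPM for each library of the clone experiment, MCM2-2A clones left of the dashed line and WT clones right of it, with symbols for the batch. MCM2-2A#8 lies lowest for Klhl13 at 53.6 and 56.4 CPM, WT#8 and WT#6 lie lowest among the WT clones, and WT#8 lies highest for Cul3 at 217 and 218 CPM.

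The 2 WT clones with the least Klhl13 also had the least Mcm2. Mcm2, which encodes the edited helicase subunit, was named after its values were seen. In August it stood at 189 to 272 CPM in the 5 MCM2-2A clones, against 229 to 234 CPM in WT#8, 214 to 223 CPM in WT#6 and 287 to 417 CPM in the other 5 WT clones. MCM2-2A#8, the clone with the least Klhl13, went the other way, with the most Mcm2 of the 5 MCM2-2A clones (263 to 272 CPM). In the rescue experiment Mcm2 stood at 206 to 218 CPM in MCM2-R#2, 211 to 233 CPM in MCM2-2A#2 and 398 to 440 CPM in WT#1. Klhl13 averaged 219, 80.0 and 286 CPM in these lines. In the POLE4 experiment Mcm2 was at 350 to 443 CPM in all libraries of the POLE4-KO clones, and Klhl13 was at 302 to 638 CPM. The part of Mcm2 dosage in the Klhl13 values was not tested. Summed 2-cell-like markers (5 of 5 detected, none at 0 throughout) stood at 35.4 to 139.0 CPM in MCM2-2A libraries and 6.32 to 61.5 CPM in WT libraries of the clone experiment. They were lowest in WT#6 (6.32 to 9.15 CPM) and WT#8 (16.9 to 19.4 CPM), and their part in the Klhl13 values was not tested either.

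Klhl9 was not called between genotypes in the clone experiment. August clones averaged 72.5 ± 7.10 CPM in MCM2-2A (SD, n = 5) and 76.2 ± 9.56 CPM in WT (SD, n = 7), with a log2 fold change of -0.08 (95% interval -0.25 to 0.10, adjusted p = 0.702). Within March, single clones differed in both directions: 83.1, 83.3 and 89.7 CPM in MCM2-2A#1 and 54.7, 54.7 and 59.2 CPM in MCM2-2A#3, against 61.5, 69.2 and 72.5 CPM in WT#1. Klhl9 had log2 fold changes of 0.33 (adjusted p = 0.00333) in MCM2-2A#1 and -0.27 (adjusted p = 0.00868) in MCM2-2A#3 over WT#1, both under the fold limit. Between MCM2-2A#3 and MCM2-2A#1 themselves, a comparison added after these values were seen, it was -0.60 (SE 0.08, adjusted p = 3.514e-07), which was called. In that comparison 17.4% of all genes were called and 11.2% of all were called lower.

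Among the August MCM2-2A clones Cul3 varied least of the 3 genes, with a coefficient of variation of 3.05%. August clones averaged 136 ± 4.15 CPM in MCM2-2A (SD, n = 5) and 154 ± 26.4 CPM in WT (SD, n = 7), and the log2 fold change was -0.19 (95% interval -0.38 to 0.00, adjusted p = 0.327). WT#8 stood apart from the other WT clones, with 213 CPM when its libraries were summed and the next clone at 152 CPM. Over all batches the log2 fold change of Cul3 was -0.15 (SE 0.08, adjusted p = 0.302), and that of Klhl9 was -0.05 (SE 0.10, adjusted p = 0.840).

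The POLE4 experiment put the same question to the loss of another replication factor that handles histones. Klhl13 had 302, 302 and 333 CPM in POLE4-KO#1, 420, 458 and 459 CPM in POLE4-KO#2, 609, 545 and 638 CPM in POLE4-KO#3, and 509, 571 and 559 CPM in WT#1. POLE4-KO#1 and POLE4-KO#2 lay below every WT#1 culture, and POLE4-KO#3 overlapped WT#1. How many of all genes separate these clones from WT#1 was not counted. The log2 fold change was -0.81 (SE 0.08, adjusted p = 1.336e-06) in POLE4-KO#1, and it was called, where 11.5% of all 16864 genes were called and 7.81% of all were called lower. It was -0.29 (SE 0.08, adjusted p = 0.0101) in POLE4-KO#2 and 0.13 (SE 0.08, adjusted p = 0.302) in POLE4-KO#3, neither called, where 11.3% and 2.98% of genes were called. All 3 comparisons share the WT#1 cultures. Summed fibroblast or feeder markers (6 of 6 detected) differed between the clones in the same order, at 5.07 to 5.53 CPM in POLE4-KO#1, 9.29 to 11.2 CPM in POLE4-KO#2, 69.7 to 88.3 CPM in POLE4-KO#3 and 78.7 to 79.9 CPM in WT#1. Summed 2-cell-like markers (5 of 5 detected) had that order too, at 4.53 to 7.65 CPM in POLE4-KO#1, 22.4 to 27.2 CPM in POLE4-KO#2 and 30.1 to 39.6 CPM in POLE4-KO#3, against 6.22 to 9.40 CPM in WT#1. So did primitive endoderm markers (6 of 6 detected), at 10.6 to 12.4, 13.1 to 14.5 and 16.6 to 17.8 CPM in the same clones, against 9.86 to 11.8 CPM in WT#1. The remaining lists did not have that order. Embryonic stem cell markers stood at 3981 to 4422, 3150 to 4090 and 3137 to 3547 CPM in the same clones. Trophectoderm markers stood at 50.1 to 58.1, 51.6 to 65.9 and 46.1 to 52.9 CPM. The part of any of these lists in the Klhl13 values was not tested.

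Between knockout clones, in comparisons added after the values were seen, Klhl13 was lower in POLE4-KO#1 than in POLE4-KO#3, with a log2 fold change of -0.94 (SE 0.08, adjusted p = 1.799e-07), and it was called, where 16.5% of all genes were called and 12.4% of all were called lower. POLE4-KO#1 over POLE4-KO#2 gave -0.51 and POLE4-KO#2 over POLE4-KO#3 gave -0.42, with adjusted p of 0.000156 and 0.000841, both under the fold limit, where 9.93% and 10.2% of genes were called. The mean over the 3 knockout clones was -0.32 (SE 0.06, adjusted p = 0.00167) relative to WT#1, also under the fold limit, in a comparison where 5.74% of genes were called.

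**Figure D3:**
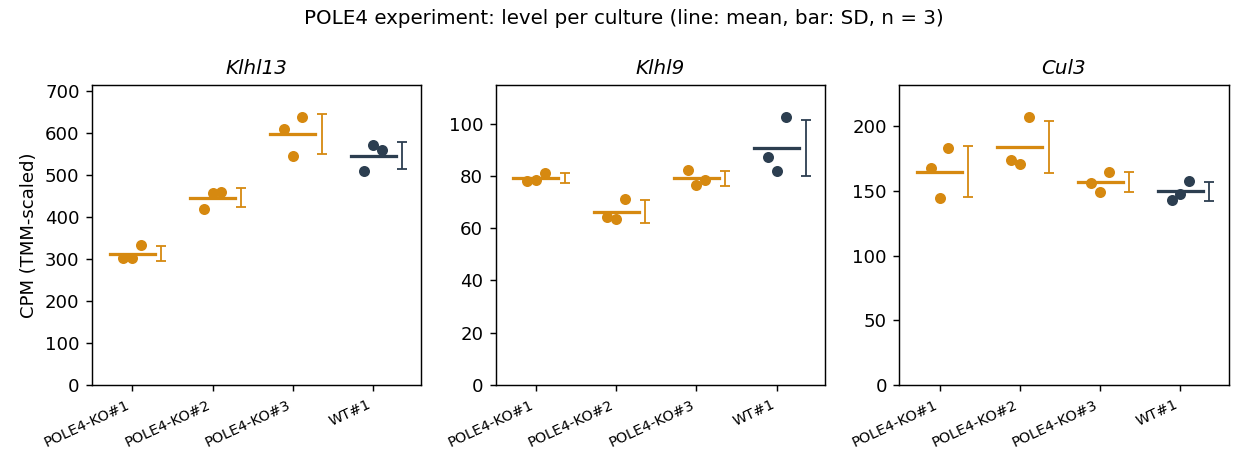
Levels of Klhl13, Klhl9 and Cul3 in CPM per culture of the POLE4 experiment, for 3 POLE4-KO clones and WT#1. Points are cultures, lines are means and bars are SD over 3 cultures. Klhl13 averages 312 CPM in POLE4-KO#1, 446 CPM in POLE4-KO#2, 597 CPM in POLE4-KO#3 and 546 CPM in WT#1.

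Klhl9 and Cul3 did not follow the order of Klhl13 in the knockout clones. Klhl9 averaged 79.3 ± 1.77 CPM in POLE4-KO#1, 66.4 ± 4.35 CPM in POLE4-KO#2, 79.1 ± 2.92 CPM in POLE4-KO#3 and 90.6 ± 10.7 CPM in WT#1 (SD, n = 3 each). The lowest WT#1 culture, at 82.1 CPM, lay inside the range of POLE4-KO#3 and above the other 2 clones. Its log2 fold change was -0.45 (SE 0.08, adjusted p = 0.000617) in POLE4-KO#2, under the fold limit, and -0.19 and -0.20 in POLE4-KO#1 and POLE4-KO#3, with adjusted p of 0.0868 and 0.119. Cul3 averaged 165 ± 19.5 CPM in POLE4-KO#1, 184 ± 20.3 CPM in POLE4-KO#2, 157 ± 7.77 CPM in POLE4-KO#3 and 150 ± 7.56 CPM in WT#1 (SD, n = 3 each). Its log2 fold changes of 0.14, 0.30 and 0.07 over WT#1, in the same order, had adjusted p of 0.279, 0.0217 and 0.682.

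Across the 12 comparisons of edited lines plotted here, Klhl13 was called in 4 of the 9 that carry a test, lower in each, and Klhl9 and Cul3 in none of 12. The 4 calls are not independent: each sets a single clone against WT#1, 3 of them share the March WT#1 libraries, and the bridge contains the difference of MCM2-2A#1 from WT#1. Neither comparison over several MCM2-2A clones was called. The level of WT#1 itself was not the same in every experiment: Klhl13 stood at 286 CPM in the rescue experiment, 437 to 480 CPM in the clone batches and 546 CPM in the POLE4 experiment. Rescue libraries were made with another version of the directional library kit, and tables were scaled separately, so levels were compared only within an experiment.

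**Figure D4:**
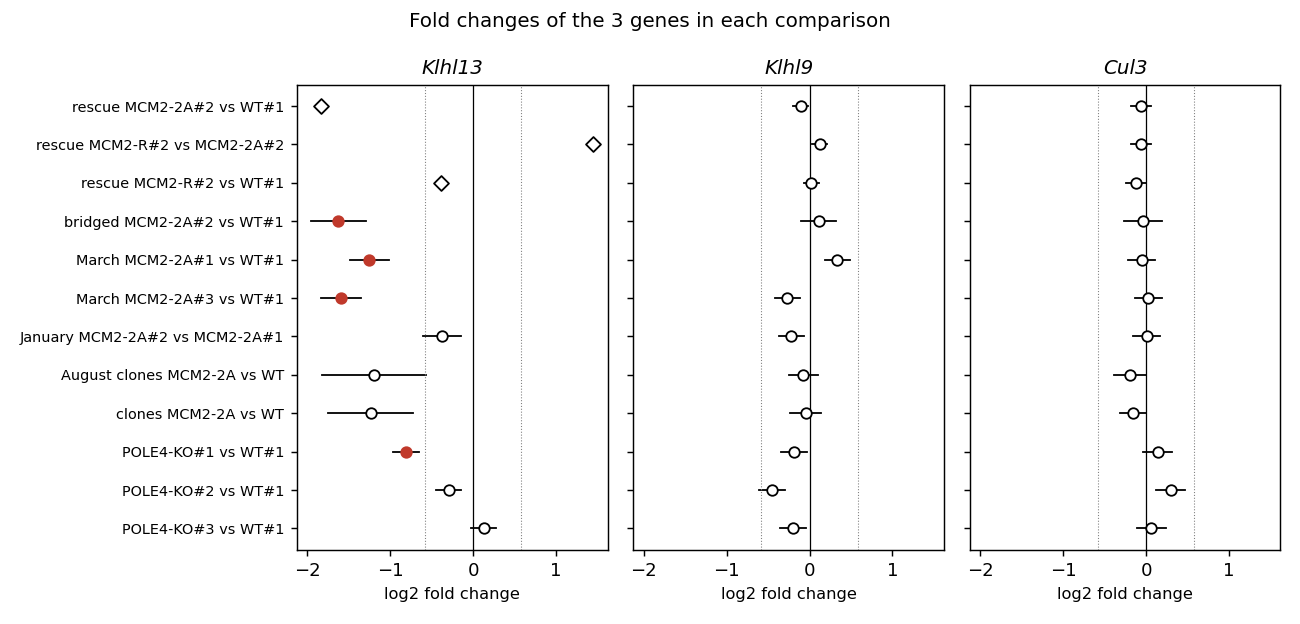
Log2 fold changes of Klhl13, Klhl9 and Cul3 in 12 comparisons, one row each. Lines are 95% intervals, filled points were called, dotted lines mark 0.58 in each direction, and diamonds are the Klhl13 values of the rescue experiment, which carry no test. Klhl13 lies between -1.84 and 1.45, while Klhl9 and Cul3 stay between -0.45 and 0.33 in these rows.

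The position of Klhl13 on the X chromosome was set beside its neighbours. Wdr44 was the only other protein-coding gene within 1 Mb that was tested, 328 kb away. Its log2 fold changes were 0.12 in MCM2-2A#2 over WT#1 in the rescue experiment and 0.04 between August clones, and it was not called in any comparison. Of 567 other X-linked genes tested in MCM2-2A#2 over WT#1 in the rescue experiment, 19 were called higher and 9 lower, or 4.94% in either direction against 2.76% of all genes, with a median of -0.06. Of 595 tested in POLE4-KO#1 over WT#1, 20 were called higher and 69 lower, or 11.6% lower, against 7.81% of all genes, with a median of -0.04. In either direction this was 15%, against 11.5% of all genes. Between August clones 0.126% of 796 other X-linked genes were called, against 0.227% of all genes. Over the bridge 3.2% of 845 were called, against 2.61% of all genes.

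Other genes of the ligase were followed through lists. Of 25 genes of the CUL3 core and of its activation by NEDD8, all tested, none was called in the rescue comparisons, the bridge, January, August or the clone comparison, with a median log2 fold change of -0.04 in MCM2-2A#2 over WT#1 against 0.01 over all genes. There 0.227% (August) to 4.6% (January) of all genes were called, so no call among 25 genes is near that share. Nedd8, which encodes the ubiquitin-like activator of cullins, was lower in MCM2-2A#3 over WT#1 in March (-0.91, SE 0.09, adjusted p = 2.089e-08) and in POLE4-KO#2 (-1.002, SE 0.08, adjusted p = 4.024e-07). Senp8, which encodes a NEDD8 protease, was higher in POLE4-KO#1 (0.64, SE 0.14, adjusted p = 0.00265). In these comparisons 11.8% of all genes were called in MCM2-2A#3, 11.3% in POLE4-KO#2 and 11.5% in POLE4-KO#1. Of 7 other cullins none was called in any comparison, where 0.227% to 17.4% of all genes were called.

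Of 41 other BTB adaptors of CUL3, 40 were tested and none was called in the rescue comparisons, the bridge, January, August or the clone comparison. In these comparisons 0.227% (August) to 4.6% (January) of all genes were called. The medians were -0.07 in MCM2-2A#2 over WT#1 in the rescue experiment and -0.07 between August clones, against 0.01 and -0.01 over all genes. Of the 40, 1 was called in MCM2-2A#3 over WT#1 in March and in POLE4-KO#2 over WT#1, where 11.8% and 11.3% of all genes were called. In POLE4-KO#1 over WT#1, 6 of 40 were called, against 11.5% of all genes. Among them Klhl3, whose human counterpart targets WNK kinases, was lower (-1.60, adjusted p = 3.289e-05), with Klhl5 (-0.61) and Kctd10 (-0.59), while Kbtbd7 (0.82) and Rhobtb2 (0.67) were higher.

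The substrate side was Aurora B with its chromosomal passenger partners. Aurkb, Incenp, Birc5 and Cdca8 were not called in any comparison, where 0.227% to 17.4% of all genes were called. Their log2 fold changes in MCM2-2A#2 over WT#1 lay between 0.03 and 0.12 in the rescue experiment and between -0.12 and -0.04 over the bridge.

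Pluripotency factors and ERK feedback genes were listed because Klhl13 has been tied to both in embryonic stem cells. Of 15 naive pluripotency genes, Tbx3, a transcription factor, was called higher (0.83, SE 0.10, adjusted p = 0.000128) and Dppa3, a maternal-effect factor, lower (-0.999, SE 0.15, adjusted p = 0.000667) in MCM2-2A#2 over WT#1 in the rescue experiment, and the median was -0.02. Tbx3 was lower in MCM2-R#2 over MCM2-2A#2 (-0.64, adjusted p = 0.00187), and higher in the clone comparison (0.64, adjusted p = 0.00772). Over the bridge Tbx3 was higher (0.87) and Dppa3, Nr0b1 and Tfcp2l1 lower (-1.19, -0.71 and -0.63). Dppa3 was also lower in MCM2-R#2 over WT#1 (-0.93), in MCM2-2A#1 (-0.73) and MCM2-2A#3 (-0.64) over WT#1 in March, and in POLE4-KO#3 (-0.82). In March the orphan receptor genes Nr0b1 and Esrrb were lower in MCM2-2A#1 (-0.68 and -0.60) and Tbx3 was higher in MCM2-2A#3 (0.80). In POLE4-KO#1, Klf5 (0.94) and Nr0b1 (0.62) were higher, and none was called in POLE4-KO#2, August or January. Of 11 ERK feedback genes none was called in the rescue, bridge, August or clone comparisons. In March, Dusp4, Dusp6 and Fos were lower in MCM2-2A#3 over WT#1 (-1.21, -1.41 and -1.52) and Spry4 and Etv4 higher (0.65 and 0.65), while none was called in MCM2-2A#1. Dusp4, an ERK phosphatase gene, was also lower in POLE4-KO#1 (-2.19, adjusted p = 1.320e-10) and POLE4-KO#2 (-1.35, adjusted p = 4.745e-08). It was lower in MCM2-2A#2 over MCM2-2A#1 in January (-0.97, adjusted p = 0.00362). In POLE4-KO#1 Fos was lower (-1.13) and Spred1, an inhibitor of the ERK pathway, higher (0.63). Over WT#1 in March, 11.8% of all genes were called in MCM2-2A#3 and 4.52% in MCM2-2A#1. POLE4-KO#1, POLE4-KO#2 and POLE4-KO#3 had 11.5%, 11.3% and 2.98%. The share was 4.6% in January, 2.61% over the bridge, 0.679% in the clone comparison and 0.227% in August. Rescue shares were 2.76% (mutant against WT#1), 1.37% (reverted line against mutant) and 0.298% (reverted line against WT#1). Whether either list exceeds these shares was not tested.

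The genes whose level followed Klhl13 most closely were looked up over the 17 clone and batch units, each batch centred on its mean, among 10803 other genes of at least 5 CPM on average. The units share genotype, clone and depth, so the correlations are a description. Batches differ in their mix of genotypes, and January holds only MCM2-2A units, so centred values are not comparable between batches. MCM2-2A#2 in January, at 143 CPM of Klhl13, is centred to -0.18, and MCM2-2A#4 in August, at 200 CPM, to -0.31. The highest Pearson r were 0.95 for Dnmt3b, a de novo DNA methyltransferase, 0.95 for Pde1b and 0.92 for Pde7a, which encode cyclic nucleotide phosphodiesterases, 0.94 for the FGF receptor gene Fgfr2 and 0.93 for Ttyh3. The lowest were -0.93 for Esco1, which encodes a cohesin acetyltransferase, -0.92 for the clock repressor gene Cry1, and -0.91 for Traf3ip2, Retsat and Pcsk6. Klhl9 and Cul3 had r of 0.11 and 0.07 and ranked 4575 and 4938 from the highest.

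MCM2-2A#8 lies far from the other units in these correlations. Without it, over 16 units, Dnmt3b had an r of 0.91, Klhl9 of 0.31 and Cul3 of -0.13. Mcm2 had an r of 0.69 over 17 units, where it ranked 382, and of 0.93 over 16, where it ranked 1. Dnmt3b had 235 to 403 CPM in the MCM2-2A units and 359 to 510 CPM in the WT units. Its log2 fold change was -0.49 in MCM2-2A#2 over WT#1 in the rescue experiment and -0.41 between August clones, and it was called in neither.

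**Figure D5:**
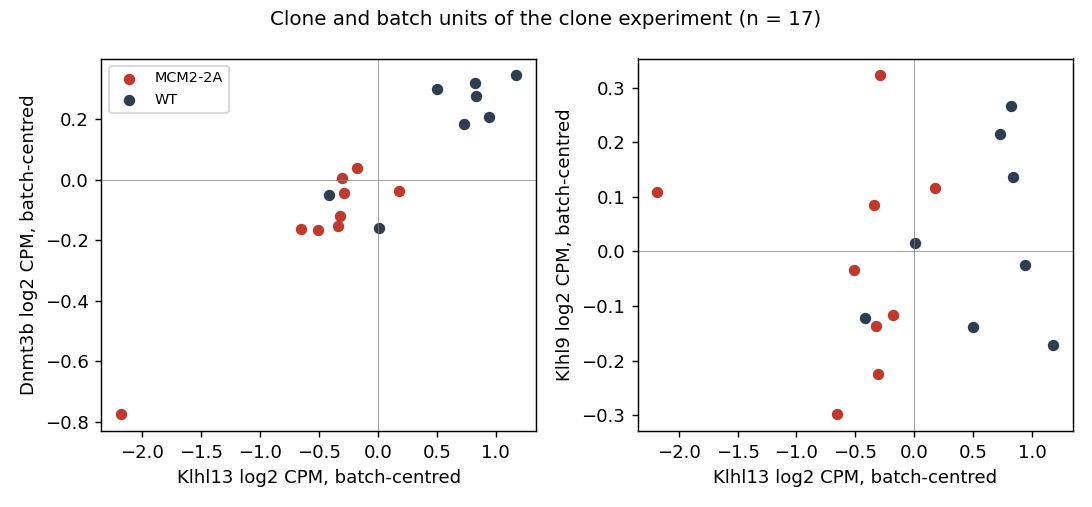
Batch-centred log2 CPM of Dnmt3b and of Klhl9 against that of Klhl13 over 17 clone and batch units. Points are MCM2-2A or WT units, and January holds only MCM2-2A units, so centred values are not comparable between batches. Dnmt3b has an r of 0.95 with Klhl13 and Klhl9 has an r of 0.11 with it, and the point at the far left is MCM2-2A#8.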

How the data were processed

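Strand-specific total RNA-seq libraries, depleted of ribosomal RNA, were analysed from 3 count tables. Their values are unscaled counts of reads, which the authors deposited for genes and for repeat subfamilies. The submitters' processing notes name mm10, Trimmomatic 0.39 (trimming), STAR 2.7.1a (alignment), featureCounts (counting) and DESeq2. The strand setting is not given in the sources used here. Of 68 columns, 65 were tied to samples, and 3 whose line number belongs to no sample were not used.

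Technical runs of a culture were summed, and clone libraries were summed per clone and batch unless libraries are named as units. Features were filtered with filterByExpr (min.count 10, min.total.count 15), scaled by TMM factors from gene rows, and tested in edgeR 4.0.16 (R 4.3.3) by quasi-likelihood with Benjamini-Hochberg adjustment over all genes. SE was taken as the absolute log2 fold change over the root of the F statistic. Tested on simulated data, the August fit on 20457 genes recovered 74% of 100 genes changed 2-fold and 100% of 100 changed 4-fold. The simulated spread followed the trend over all genes. Recovery was not measured at the spread of Klhl13 itself, with coefficients of variation of 37.9% in August MCM2-2A clones and 33.7% in WT clones. DESeq2 1.42.0, other scaling, no filter, left-out units and replicate blocks were alternatives. Symbols and positions are from GENCODE vM21 and the names table. Replicates are cultures or libraries of 1 clone, so p-values between single clones measure only their spread.

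The genes, lists and tests were chosen with earlier results of these data known. Named list genes are those called, at most 6 per list by size of change (a called adaptor gene is not reported here), and correlated genes are the 5 highest and the 5 lowest. Numbers of POLE4-KO cultures paired the 3 clones, with correlations over 0.1 in 9 of 9 same-numbered pairs, as did those of the March MCM2-2A#3 and WT#1 libraries, with 3 of 3, and those of the rescue cultures did not, with 5 of 12.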

Additional observations from a re-analysis of the deposited data

Results flagged for a closer look

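Among 15 groups of 4 to 7 cultures or clones, 2 held a sample far from the others by Dixon's test, which flags about 1 group in 20 by chance. MCM2-2A#8 had 54.6 CPM of Klhl13, and the next of the 5 August MCM2-2A clones had 174 CPM. WT#8 had 213 CPM of Cul3, and the next of the 7 August WT clones had 152 CPM. WT#8 was also the WT clone with the least Klhl13.

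Clones of 1 genotype differed from each other in 2 cases. The Klhl13 log2 fold change of POLE4-KO#1 over POLE4-KO#3 was -0.94, with all 3 POLE4-KO#1 cultures below all 3 POLE4-KO#3 cultures. The Klhl9 log2 fold change of MCM2-2A#3 over MCM2-2A#1 in March was -0.60, with all 3 libraries of MCM2-2A#3 below all 3 of MCM2-2A#1. The share of all genes separated in this way was counted in neither case.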

How the results depend on the processing

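Of 567 alternative values of the 3 genes' log2 fold changes that carry a test, 539 kept their direction and their side of the call. In 9 a Klhl13 value became called and in 19 an uncalled Klhl9 or Cul3 value near 0 changed sign, and no call was lost among them. The 39 alternative values of Klhl13 in the rescue comparisons carry no call and kept their direction. Between August clones Klhl13 was called with DESeq2 (-1.20, adjusted p = 0.00513), which called 303 genes in place of 47. In the clone comparison it was called with DESeq2 (-1.24, 499 genes in place of 158), with single libraries as units (-1.26, 998 genes), with no filter (-1.26), and in March alone with libraries as units (-1.42, 31 genes), where Klhl9 was at 0.0595. Without WT#1 and MCM2-2A#2, 5 genes were called. With no filter, calls came to 1774 in place of 1013 in January, 1018 in place of 576 over the bridge, 847 in place of 503 in POLE4-KO#3, and in the rescue experiment 792 in place of 472 (MCM2-2A#2 over WT#1), 584 in place of 234 (MCM2-R#2 over MCM2-2A#2) and 87 in place of 51 (MCM2-R#2 over WT#1). MCM2-R#2 over MCM2-2A#2 also gave 376 calls with DESeq2. With the sequencing run as a covariate, 728 genes were called in MCM2-2A#2 over WT#1 and 365 in MCM2-R#2 over MCM2-2A#2, where Cul3 was at 0.0214. Cul3 in January was at -0.0146 with no filter, and Klhl9 in POLE4-KO#1 over POLE4-KO#3 at -0.0084 with DESeq2, -0.0087 with RLE size factors and -0.0016 with no filter. These causes were not tested.

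Leaving out 1 clone, culture or library gave Klhl13 log2 fold changes of -1.31 to -0.98 in August, -1.33 to -1.06 in the clone comparison and -0.61 (called, without the first MCM2-2A#2 library) to -0.23 in January. Counts of calls ran from 0 (without MCM2-2A#4 or MCM2-2A#7) to 37 in August, where only the omission of WT#4 or WT#7 left the count within 1.5 times. They ran from 26 (without WT#1) to 170 in the clone comparison, where leaving out WT#2, WT#3 or any 1 of MCM2-2A#3 to MCM2-2A#7 gave 77 to 104. They ran from 301 (without the third MCM2-2A#2 library) to 2477 (without the first) in January, where leaving out MCM2-2A#2 library 2 or MCM2-2A#1 library 2 gave 513 and 508. In March they ran from 616 to 839 for MCM2-2A#1 over WT#1, lowest without WT#1 library 3, WT#1 library 1 or MCM2-2A#1 library 5. Over the bridge they ran from 414 to 1027 (without the first MCM2-2A#2 library), and from 317 to 459 in POLE4-KO#3, lowest without WT#1 cultures 8 or 6. In the rescue experiment they ran from 288 to 475 (MCM2-2A#2 over WT#1) and from 117 to 273 (MCM2-R#2 over MCM2-2A#2), low in both without MCM2-2A#2 cultures 1 or 2 and in the second also without MCM2-R#2 cultures 1 or 2. Cul3 ran from -0.0239 to 0.0744 in January, -0.0472 to 0.064 in MCM2-2A#3 over WT#1, -0.114 to 0.0229 over the bridge and -0.0028 to 0.166 in POLE4-KO#1 over POLE4-KO#3. Klhl9 ran from -0.0166 to 0.0328 in POLE4-KO#1 over POLE4-KO#3 and from -0.0106 to 0.0426 in MCM2-R#2 over WT#1.

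With a replicate block and libraries as units Klhl13 was called in August (-1.15, adjusted p = 0.00429; 386 genes called), and the block left 11 calls in January. Libraries as units without the block gave nearly the same (-1.15, adjusted p = 0.00337; 398 genes called), an alternative chosen after seeing the data. Both count the libraries of a clone as separate and leave out WT#1, whose August libraries carry other numbers. Same-numbered August libraries of different clones correlated at 0.053 to 0.288, over 0.1 in 78 of 110 pairs, so the numbers may mark something shared. The 2 libraries of a clone were centred on their mean, so these 110 pairs hold each value 2 times. In January 2 of 3 pairs were over 0.1. The block changed no call of the 3 genes between POLE4-KO clones, in March or in the rescue experiment. No paired analysis was possible because the WT#1 columns of the POLE4 experiment share no number with the POLE4-KO cultures, so POLE4-KO clones over WT#1 were fitted without a block.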
